A study of Mus musculus with 21 samples.

Results

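Some stretches of chromatin that carried several separate peaks of the histone mark H3K79me2 in solvent-treated mouse embryonic stem (ES) cells lay under 1 unbroken H3K79me2 peak in cells whose kinase Cdk1 had been inhibited. Such an inhibitor peak is called a bridging domain here. The domains were chosen by their overlap with peaks: a peak of the inhibitor list counted if it shared at least 1 bp with 2 or more peaks of the DMSO list and met no DMSO peak wider than 20 kb. Of 22352 inhibitor peaks, 2379 met 2 or more DMSO peaks. A total of 267 of these met a DMSO peak wider than 20 kb and were left out, so 2112 bridging domains remained, 9.45% of the inhibitor list. The number rests on weak DMSO peaks and short gaps: it was 678 with only DMSO peaks at or above the median score of their list, and 1260, 884 and 455 with DMSO peaks less than 2, 3 and 5 kb apart joined first. Because the H3K79me2 peaks of both lists chose the domains, their number, width, gaps and H3K79me2 scores are given as descriptions with no test.

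H3K79me2 is dimethylation of lysine 79 on histone H3. It is placed by Dot1l, the only known enzyme for this residue in mammals, and it is typically found over the first part of transcribed genes, from near the start site into the gene body. In ES cells, as in other cells, broad stretches of the mark lie on active genes, and the length of a stretch differs from gene to gene. Cdk1 is the cyclin-dependent kinase that drives entry into mitosis.

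The cells were mouse ES cells of the V6.5 strain background in which both Cdk1 alleles are analog-sensitive (Cdk1as/as), a form with an enlarged ATP pocket that the bulky inhibitor 3-MB-PP1 can block. Both H3K79me2 groups carried these alleles and were grown without feeder cells. The first group received 1 µM 3-MB-PP1 for 4 days and the second the solvent DMSO for the same time, with 1 ChIP library and 1 input library per treatment. The third library used here was a Thio-ChIP of Cdk1as/as cells. In that method the analog-sensitive kinase tags its substrates with thiophosphate, and DNA bound by tagged proteins is recovered with an antibody against the thiophosphate ester; these cells were in N2B27 medium, had been gathered at G2/M with 3-MB-PP1 in the presence of retinoic acid and were labelled after the inhibitor was washed out. RNA from 3 libraries of undifferentiated ES cells was used to look at marker genes. Their sample labels give the genotype Cdk1as/as, whereas the series text calls the cells of the transcriptome wild type. The labels do not say whether libraries came from separate cultures or clones.

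With 1 library per treatment, no difference between inhibitor and DMSO below has a replicate check, and no p-value can be given. The inhibitor list held 22352 peaks over 132.028 Mb and the DMSO list 13437 peaks over 59.8739 Mb. The sequencing depth behind either list is unknown, and its part in the bridging was not tested. A gap between DMSO peaks is a stretch where no peak was listed, which is not the same as absence of the mark. No 2 neighbouring DMSO peaks were closer than 1161 bp and no 2 inhibitor peaks closer than 1165 bp, so every gap inside a domain is longer than about 1 kb. Each of these limits was 1 bp more than 4 times the narrowest width in its list (290 and 291 bp).

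Positions are given as the lists have them, counted from 1. Their build is not given with the lists. The lists did not line up with gene starts of GRCm38: on 18 of the 19 chromosomes that could be checked the best match lay more than 2 kb away from a shift of 0, for each of the 3 lists. Chromosome 18 was not checked. The other build named in the submitters' processing notes is mm9. The 2 H3K79me2 lists shared their best shift within 2 kb on 18 of 19 chromosomes, and the Thio-ChIP list shared it with either of them on 13 of 19. Domains were therefore compared with each other and with Thio-ChIP peaks, and genes were not joined to them.

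All 8 markers of ES cells were present in the 3 RNA libraries, at 53.2 to 961 FPKM (a level corrected for transcript length and library size). Pou5f1, the transcription factor that defines the pluripotent state, was at 929, 897 and 961 FPKM. The RNA came from cells kept on feeders, and all 8 fibroblast and feeder markers were above 0, from 0.817 FPKM for Col3a1, a fibrillar collagen, to 157 FPKM for Vim, an intermediate filament protein. The 4 endoderm markers were at 4.21 to 47.3 FPKM and the 3 neural markers at 1.9 to 3.98 FPKM. Dot1l was at 14.5, 13.7 and 12.9 FPKM in these libraries, and Cdk1 at 292, 233 and 305 FPKM. The H3K79me2 libraries came from cells grown without feeders. These RNA levels therefore do not check the identity of the cells used for ChIP.

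The 3 domains nearest the median width differed from each other in score and in how much of them DMSO peaks covered. The first covered 5:106223467-106240196, a stretch of 16.73 kb with an inhibitor score of 25. Under DMSO it held a peak of 1278 bp with score 13 and a peak of 330 bp with score 15, separated by 1711 bp. Only 9.61% of the inhibitor domain lay inside DMSO peaks, and it reached 12198 bp past the second one. The score is the authors' value for each peak, used here only to rank and describe peaks within a list.

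The second domain, 6:51494672-51511406, had an inhibitor score of 41 and held 3 small DMSO peaks with scores of 19, 13 and 18. The gaps between them were 3491 and 1415 bp, and DMSO peaks covered 20.2% of the domain. The third, on chromosome 18, was of another kind: DMSO peaks covered 83.2% of it. It had an inhibitor score of 143, and its DMSO peaks, with scores of 24 and 67, were 4453 and 9460 bp wide and lay 1462 bp apart. A Thio-ChIP peak with a score of 187 lay over its higher end, beside the stronger DMSO peak, while the other 2 domains met none.

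**Figure D1:**
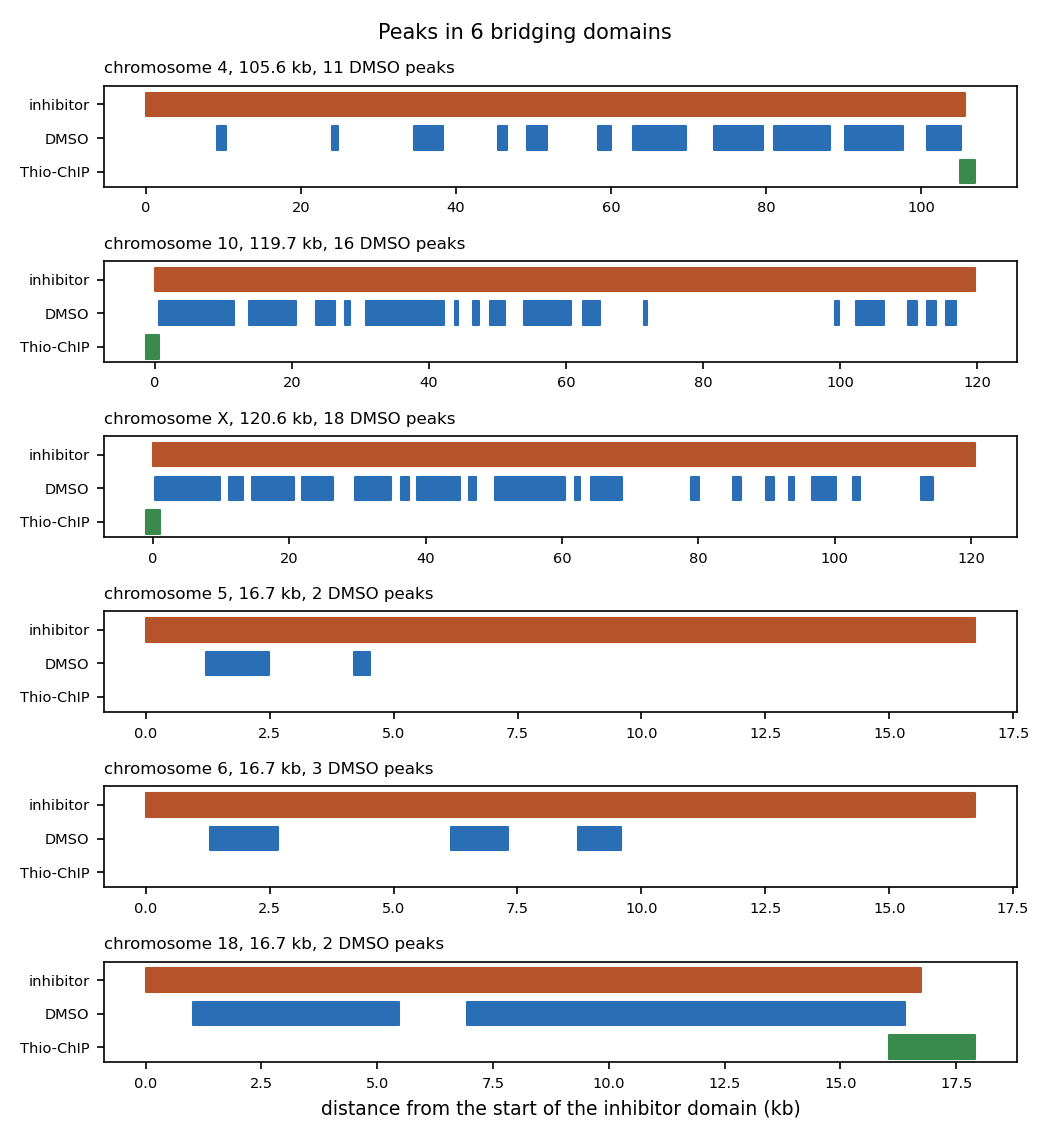
Position of inhibitor peaks, DMSO peaks and Thio-ChIP peaks in 6 bridging domains, with the distance from the start of the inhibitor domain in kb on the horizontal axis and 1 row of boxes for each list. The 3 upper domains hold 11, 16 and 18 DMSO peaks, and each has a Thio-ChIP peak at 1 end. The outermost DMSO peak at that end is 4435 to 11073 bp wide. The 3 lower domains are those nearest the median width.

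Most domains joined few peaks. A total of 1258 domains (59.6%) met 2 DMSO peaks, 414 (19.6%) met 3, 202 (9.56%) met 4 and 238 (11.3%) met 5 or more. Only 20 domains met 10 or more, and the highest number was 18. The median width was higher for more peaks met, from 12360 bp for 2 peaks to 20564 bp for 3, 25831 bp for 4 and 34328 bp for 5. The median inhibitor score did not follow it, at 54, 57, 57 and 53 for the same classes. Domains that joined more DMSO peaks were thus wider without a higher score.

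The domains were wide peaks of their list. Their median width was 16733 bp, with quartiles of 10683 and 25363 bp and extremes of 2595 and 140123 bp, beside 2320 bp over all inhibitor peaks. Their median score was 55 (quartiles 39 and 80), beside 19 over all inhibitor peaks. A peak has more room to meet a second one the wider it is, so the width follows in part from the way the domains were chosen. The inhibitor peaks that met 1 DMSO peak, 6003 in number, had a median width of 4920 bp and a median score of 46. The 13970 that met none had 1347 bp and a score of 15.

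Of the 42.4 Mb in bridging domains, 20.5 Mb (48.2%) lay inside DMSO peaks. Gaps between DMSO peaks made up 12.2 Mb (28.8%), and stretches beyond the outermost DMSO peaks a further 9.73 Mb (22.9%). The 22.0 Mb outside any DMSO peak was thus more than the length shared with DMSO peaks. It was 29.7% of all inhibitor peak length outside DMSO peaks. Peaks that met no DMSO peak gave 42.3% of that length and peaks that met 1 gave 24.0%. The domains were 9.45% of the inhibitor peaks, but they held 42.4 of the 132 Mb of the inhibitor list. Over that whole list, 74.0 of the 132 Mb lay outside DMSO peaks.

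Domains differed widely in how much of them was already under a DMSO peak. The share ran from 2.37% to 94.3%, with a median of 48.7% and quartiles of 31.6% and 64.8%. The gaps inside a domain summed to a median of 3327 bp (quartiles 1629 and 7047 bp), and the longest single gap had a median of 2505 bp. In 468 domains (22.2%) no gap was longer than 1.5 kb, and in 1657 (78.5%) none was longer than 5 kb. A gap over 10 kb lay in 112 domains (5.30%) and a gap over 20 kb in 8. The usual bridging domain thus closed a short gap, and a small number closed long ones.

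**Figure D2:**
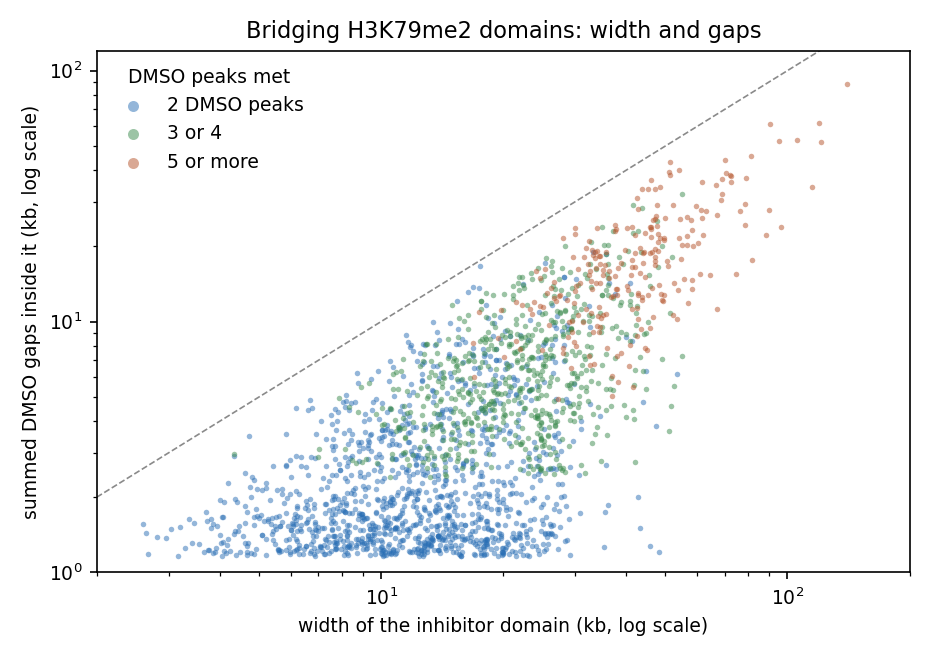
Each point is 1 of the 2112 bridging domains, with the width of the inhibitor domain on the horizontal axis and the summed gaps between its DMSO peaks on the vertical axis, both in kb on log scales; colours give the number of DMSO peaks met and the dashed line marks equal values. Domains with 2 DMSO peaks crowd along the shortest gaps, and the widest domain, at 140.1 kb, also has the longest summed gap, at 88.3 kb.

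Listed inhibitor peaks also reached outwards past the DMSO peaks. At both ends, 1609 domains (76.2%) reached beyond the outermost DMSO peak, and the 2 ends together added a median of 3130 bp. The lower end lay inside a DMSO peak in 300 domains (14.2%) and the higher end in 234 (11.1%). The 2 sides were alike in size, with medians of 843 bp at the lower and 1035 bp at the higher coordinate.

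Joining was compared in both directions by asking which gaps of 1 list lay inside a single peak of the other. Of 13417 gaps between neighbouring DMSO peaks, 4746 (35.4%) lay within 1 inhibitor peak, and 4008 of these were in bridging domains. Of 22332 gaps between neighbouring inhibitor peaks, 118 (0.528%) lay within 1 DMSO peak. The inhibitor list holds many more peaks, many of which met no DMSO peak, so the shares were also taken over gaps whose flanking peaks both met a peak of the other list. They were then 37.7% of 12583 and 2.83% of 4168. In these 2 libraries the closing of gaps ran mainly from DMSO to inhibitor. The 2 directions did not start alike, since the inhibitor list covers 132 Mb and the DMSO list 59.9 Mb. Of the length of the DMSO peaks, 58.1 Mb lay inside inhibitor peaks. The part of this unlike cover in the difference between the directions was not tested.

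The share of closed DMSO gaps was lower for longer gaps. Of gaps up to 1.5 kb with both flanking peaks met, 93.3% lay inside 1 inhibitor peak. The share was 88.5% between 1.5 and 2 kb, 79.4% between 2 and 3 kb and 71.3% between 3 and 5 kb. It was 44.7% between 5 and 10 kb and 13.3% between 10 and 20 kb. Between 20 and 50 kb it was 0.755% of 1457 gaps, and of 4157 longer ones none was closed. In the reverse direction the shares were 15.1%, 8.28%, 4.01% and 2.39% for the first 4 length classes, and no inhibitor gap over 5 kb lay inside a DMSO peak. The order between the 2 directions was the same in each class that held a closed gap in either. The closed gaps in bridging domains had a median of 2007 bp and a maximum of 36810 bp.

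**Figure D3:**
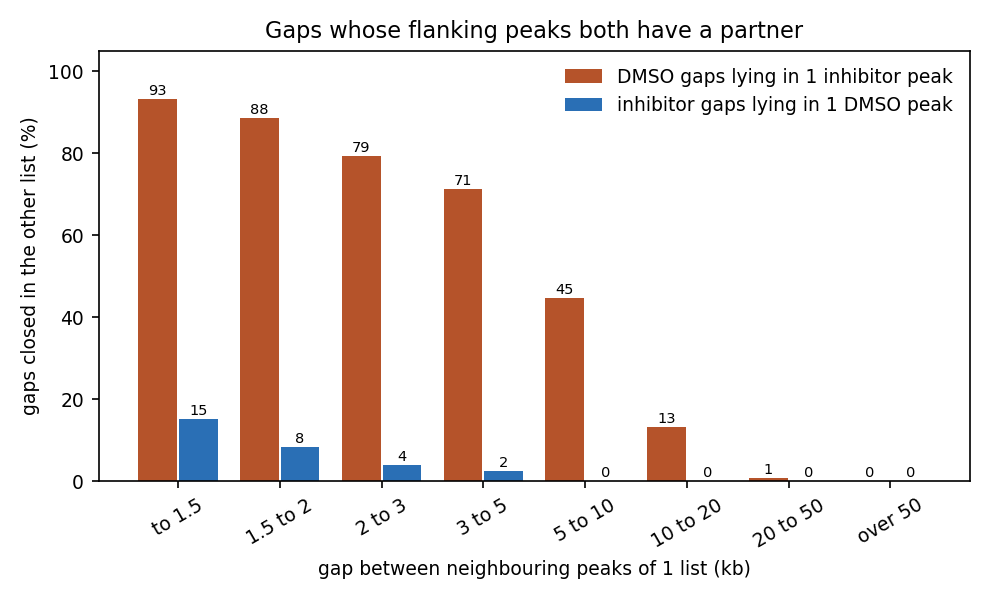
Share of gaps between neighbouring peaks of 1 list that lie inside a single peak of the other list, in percent, by gap length in kb; only gaps whose flanking peaks both meet a peak of the other list are counted. Red bars, DMSO gaps closed by an inhibitor peak, start at 93.3% and reach 0 above 50 kb, while blue bars, inhibitor gaps closed by a DMSO peak, start at 15.1%.

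A total of 113 DMSO peaks met 2 or more inhibitor peaks, 0.841% of the DMSO list. With the matching width limit, that none of the inhibitor peaks met be wider than 20 kb, 84 (0.625%) remained. Of the 113, 108 met 2 inhibitor peaks and 5 met 3.

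The bridging domains held 6116 DMSO peaks, 45.5% of that list, and 4 of these touched 2 domains. These peaks were weaker than the list as a whole, with a median score of 21 beside 24 over all DMSO peaks. The definition keeps DMSO peaks wider than 20 kb out of the domains, whereas the whole list holds them. The part of this limit in the lower median was not tested. The lead peak of a domain is the one with the highest score, so its score is above that of the others by definition. It had a median score of 35 and a median width of 3710 bp. The other peaks had a median score of 18 and a median width of 1466 bp. Of them, 77.8% lay under the median score of the list, a share that taking out each lead peak raises by construction. The share was 58.3% for all 6116 peaks in the domains, beside 47.3% over all DMSO peaks. DMSO peaks that met an inhibitor peak without being joined to another had a median score of 33 and a width of 2234 bp. The 427 DMSO peaks that met no inhibitor peak had a median score of 17. Because the lead peak is a highest value of several, its score and that of lone peaks are given side by side only.

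The lead peak usually stood at an end of the row. In the 854 domains with 3 or more DMSO peaks, it was the first or last in 650 (76.1%). The share was 81.9% of 414 domains with 3 peaks, 75.2% of 202 with 4 and 64.3% of 98 with 5. The 2 end places make up 66.7% of the places with 3 peaks, 50% with 4 and 40% with 5, and 53.3% on average with 3 or more. The lead peak thus stood at an end more often than the share of end places in each of these classes, a comparison for which no test was made.

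Thio-ChIP peaks were not used to choose the domains. Over all inhibitor peaks, 15.9% met a Thio-ChIP peak by at least 1 bp. Of the bridging domains, 917 of 2112 did, or 43.4% (95% Wilson interval 41.3% to 45.5%, which covers the counting of peaks only). This share depends on what counts as meeting: it was 18.8% when the middle of the Thio-ChIP peak had to lie inside the domain, and 26.3% with only Thio-ChIP peaks at or above the median score of their list. The share was 34.1% (32.9% to 35.3%) among inhibitor peaks that met 1 DMSO peak. It was 2.76% (2.5% to 3.05%) among those that met none. The 267 wider domains left out for a broad DMSO peak met one in 72.7% (67.0% to 77.7%). Of the 7924 Thio-ChIP peaks, 938 (11.8%) lay on bridging domains.

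A wide peak meets more Thio-ChIP peaks than a narrow one, so the shares were set side by side within width classes. Between 5 and 10 kb, 32.2% of 382 bridging domains met a Thio-ChIP peak, and 34.3% of the inhibitor peaks that met 1 DMSO peak did. Between 10 and 20 kb the shares were 40.9% (37.6% to 44.2%) and 46.1% (43.0% to 49.3%). Between 20 and 50 kb they were 53.1% (49.5% to 56.6%) and 62.9% (57.6% to 67.9%). The higher share of bridging domains over all widths was thus not seen at a given width. There the peaks that met 1 DMSO peak had the higher value in each class from 2 kb upwards. The limit of 20 kb on DMSO peaks held for bridging domains only, so the 2 sets were not filtered alike. Between 20 and 50 kb, the 130 domains left out by it met a Thio-ChIP peak in 69.2% (60.8% to 76.5%). Peaks that met 1 DMSO peak also had the higher inhibitor score than bridging domains at a given width. The medians were 78 against 56 between 10 and 20 kb and 129 against 64 between 20 and 50 kb. The domains of 20 to 50 kb left out by the width limit had a median score of 128. The part of the score difference and of the unlike width limit in the Thio-ChIP shares was not tested. Inhibitor peaks that met no DMSO peak stayed at 6.94% between 10 and 20 kb.

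**Figure D4:**
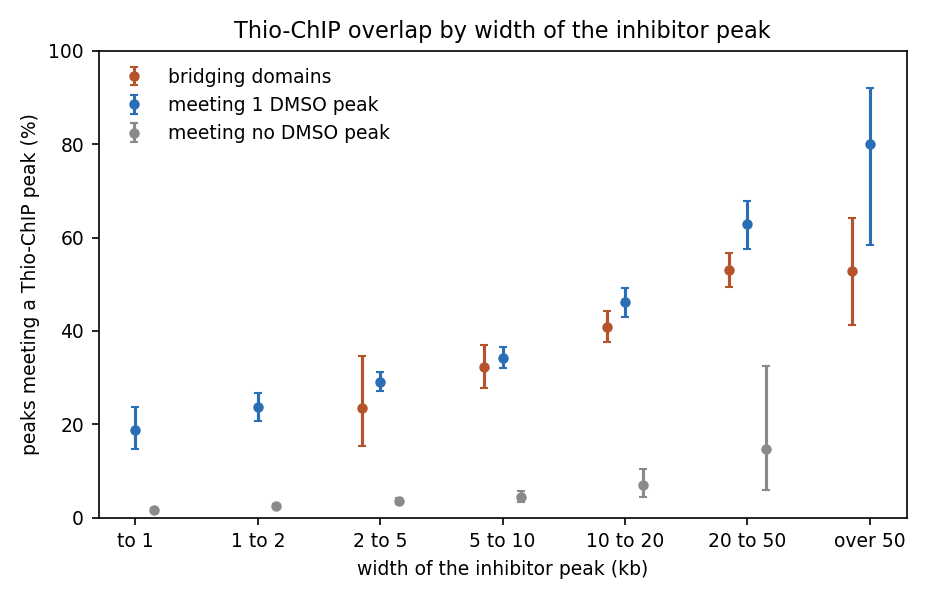
Share of inhibitor peaks that meet a Thio-ChIP peak, in percent, by width of the inhibitor peak in kb, for bridging domains, peaks meeting 1 DMSO peak and peaks meeting none; bars are 95% Wilson intervals, and classes with fewer than 20 peaks are left out. All shares rise with width up to 50 kb. Bridging domains lie below the peaks meeting 1 DMSO peak at each width both have, 40.9% against 46.1% between 10 and 20 kb. Only the bridging domains leave out those that meet a DMSO peak wider than 20 kb.

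Thio-ChIP peaks sat at the edges of the domains. Of the 917 domains, 894 met 1 Thio-ChIP peak and 23 met 2. Among the 894, the middle of the Thio-ChIP peak lay just beyond an end of the domain in 520 (58.2%). It lay within 10% of the width from an end in a further 214 (23.9%) and between 40% and 50% of the width from the nearer end in 41 (4.59%). In all, 805 (90.0%) had it beyond an end or in the outer 25% of the width on either side. These places take up a large part of each domain by definition, and no test was made. The position was not particular to bridging domains. Of 2046 inhibitor peaks that met 1 DMSO peak and a Thio-ChIP peak, 1803 could be oriented in the same way. Counting only the middles that lay inside a domain, the stretches beyond the outermost DMSO peaks held 19.6 middles of Thio-ChIP peaks per Mb. The gaps between DMSO peaks held 8.74 per Mb and the DMSO peaks themselves 5.37 per Mb. By overlap of at least 1 bp the order of the last 2 was the opposite: 2.97% of the gaps and 13.2% of the DMSO stretches met a Thio-ChIP peak, beside 18.5% of the stretches beyond the outermost DMSO peaks. Thio-ChIP peaks were narrow beside the domains, with a median of 1614 bp.

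These 805 domains could be given a direction, starting from the end with the Thio-ChIP peak. The first DMSO peak from that end had a higher score than the last in 700 (87.0%), a lower one in 89 (11.1%) and the same in 16. Median scores were 38 for the first peak and 19 for the last. The first peak was also the wider one in 656 domains (81.5%), with medians of 5222 and 1508 bp. The stronger DMSO peak and the Thio-ChIP peak thus stood at the same end in most of the oriented domains. The share was 86.0% with 2 DMSO peaks, 86.0% with 3, 89.6% with 4 and 90.2% with 5 or more. It was 88.4% where the Thio-ChIP peak was at the lower coordinate and 85.5% where it was at the higher one.

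Scores were high at the first peak and close to each other after it. In domains with 4 DMSO peaks, the medians from the Thio-ChIP end were 44, 22, 20 and 19. In domains with 5 they were 33, 22, 19, 20 and 18. Coverage went down in smaller steps. The share of bases inside DMSO peaks was 67.2% in the first of 10 equal bins, highest at 80.9% in the second bin, 56.6% in the fifth and 19.9% in the last. DMSO peaks were therefore dense near the Thio-ChIP end and sparse at the far end.

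**Figure D5:**
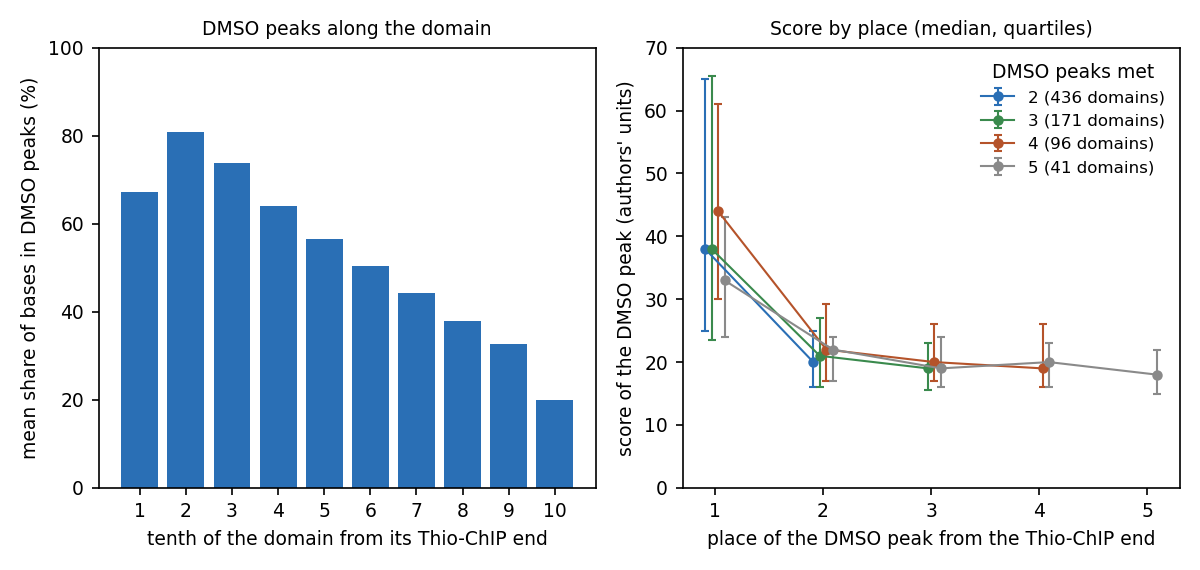
Left, mean share of bases inside DMSO peaks, in percent, in each of 10 equal bins of the 805 oriented domains, counted from the end with the Thio-ChIP peak; right, median score of DMSO peaks in the authors' units with quartiles as bars, by place from the same end and by number of DMSO peaks met. Coverage falls from 80.9% in the second bin to 19.9% in the last, and the first peak has a median score of 33 to 44 against 18 to 22 for the later ones.

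The outward reach of the listed inhibitor peaks was unequal in the same sense. At the Thio-ChIP end the inhibitor domain passed the first DMSO peak by a median of 346 bp, and at the far end it passed the last one by 2576 bp. The far side was longer in 647 of 805 domains (80.4%) and the near side in 149. Inhibitor peaks that met 1 DMSO peak were oriented in the same way. In 1803 of them the medians were 223 bp near the Thio-ChIP peak and 1212 bp away from it, with the far side longer in 68.8%. Between 10 and 20 kb the far side was longer in 80.2% of the bridging domains and in 77.6% of the others. Above 20 kb the values were 83.1% and 71.6%. A longer reach of the inhibitor peak away from the Thio-ChIP end was therefore present in both kinds of peak.

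Domains with and without a Thio-ChIP peak were compared on their H3K79me2 values. The 917 with one had a median width of 19141 bp, an inhibitor score of 66, a lead DMSO score of 42 and 54.7% of their length inside DMSO peaks. The 1195 without one had 14807 bp, a score of 47, a lead score of 30 and 43.5%. Their summed gaps were closer, at medians of 3434 and 3172 bp. With 3 or more DMSO peaks, the lead peak stood at an end in 82.0% of 412 domains with a Thio-ChIP peak and in 70.6% of 442 without. These values were not compared within width classes, so the part of the unlike widths in them was not tested.

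A set of 22 domains was taken from the extremes and the middle of the list: the 10 with the most DMSO peaks, the 10 with the longest summed gap, the 10 widest and the 3 nearest the median width. Of these 22, 8 fell under more than 1 heading and 11 met a Thio-ChIP peak. The 10 with the most DMSO peaks were 69.0 to 120.6 kb wide and held 11 to 18 of them. The 10 with the longest summed gaps, 40.1 to 88.3 kb, were 51.3 to 140.1 kb wide. Inhibitor scores among the 10 widest were 48 to 84, so the widest domains were not the strongest peaks, whose score reached 277 among bridging domains.

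A group of 3 domains stood in all 3 lists of 10, and each had a Thio-ChIP peak at 1 end. The domain with the most DMSO peaks, X:74756637-74877266, was 120.6 kb wide with an inhibitor score of 54. Its first DMSO peak had a score of 90 and a width of 9578 bp, and the 17 others had scores of 13 to 35. The Thio-ChIP peak, X:74755571-74757639, with a score of 275, lay over the start of that first peak. The last 7 DMSO peaks had scores of 13 to 18 and followed a gap of 10188 bp. DMSO peaks covered 51.6% of the domain.

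The second, 10:27795087-27914819, was 119.7 kb wide, scored 65 and held 16 DMSO peaks. The first, 11073 bp wide, had a score of 74 and the next a score of 33. A gap of 27429 bp parted the first 11 from the last 5, whose scores were 12 to 21. The Thio-ChIP peak at 10:27793790-27795710, with a score of 228, lay over the end with the strong DMSO peak. In the third, 4:90932488-91038104, the direction was the reverse on the chromosome: the Thio-ChIP peak (score 322) lay over the higher end. Its 11 DMSO peaks scored 14 to 27, and the 5 wide ones next to each other at that end were 4435 to 7522 bp wide. At the lower end, gaps of 13692 and 9871 bp parted narrow peaks. This domain had no strong DMSO peak at its Thio-ChIP end, where the outermost score was 19.

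The widest domain, 6:94093199-94233321, was 140.1 kb wide and also had the longest gap of any, 36810 bp. Its 7 DMSO peaks had scores of 13, 18, 15, 18, 24, 17 and 25, and 24.1% of the domain lay inside them. The last of them was 12291 bp wide, and a Thio-ChIP peak with a score of 251 lay over that end. A contrasting domain was 14:79067611-79118914. It was 51.3 kb wide, had an inhibitor score of 34 and only 7.26% of its length inside its 5 DMSO peaks, which were 290 to 2070 bp wide. It met no Thio-ChIP peak. By contrast, 11:107221664-107310138 held 9 DMSO peaks with scores of 17 to 35 over 88.5 kb, was inside DMSO peaks for 74.4% of its length and met no Thio-ChIP peak either.

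Bridging domains lay on all 20 chromosomes. Their share of the inhibitor peaks ran from 6.42% on chromosome X (34 of 530) to 11.3% on chromosome 3 (120 of 1058). The largest number, 180, was on chromosome 2. Across the 20 chromosomes the number of domains went with the number of inhibitor peaks (Pearson's r = 0.956, Spearman's rho = 0.946) and with the number of genes at 1 FPKM or more in ES cells (r = 0.866, rho = 0.905). These values are descriptions, since chromosome length is shared by both counts. Per 100 such genes, chromosome X had 7.85 domains, chromosome 7 had 10.7, chromosome 14 had 20.7 and chromosome 18, the highest, had 21.8. Neighbouring domains were a median of 412414 bp apart, and 189 neighbours (9.03%) were less than 10 kb apart.

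The values next to the limits of the definition were close. The widest DMSO peak in a bridging domain was 19934 bp wide, and the narrowest one over the limit in a domain left out was 20094 bp wide. The smallest stretch shared with a DMSO peak was 24 bp, and 11 domains shared less than 100 bp with their least-overlapped peak. On the other side, 8 inhibitor peaks with 1 DMSO peak ended less than 100 bp from a second, the nearest at 7 bp.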

How the data were processed

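H3K79me2 ChIP-seq after 3-MB-PP1 or DMSO and Thio-ChIP-seq were used, with 1 library each; groups came from the sample titles and treatments in the labels. Each deposited peak list holds positions and, for every peak, a score by the authors; a list stems from 1 library, the H3K79me2 peak names naming the input as control, per the file contents. The sources used here do not give the meaning of the score or the depth of the libraries. Expression levels are FPKM values that the authors deposited for 3 libraries. The submitters' processing notes name bcl2fastq 2.18, Bowtie, Bowtie2 2.2.9, MACS 1.4.2, MACS2 2.1.1, STAR 2.5.4a, Cufflinks 2.2.1 and Cuffdiff, and the builds mm9 and GRCm38, with no role given. The distance within which the caller merges signal sets where 1 peak ends and the next begins, and so affects counts of joined peaks.

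Overlaps, gaps and shares were computed with Python 3.11.15, numpy 2.4.6, pandas 2.3.3 and scipy 1.17.1, in code tested on simulated lists. The build was checked on 19 chromosomes with 9393 GRCm38 starts of genes at a mean of 1 FPKM or more, in 1 kb bins within 3 Mb. The planned join of genes and the use of the Dot1l knockout tables depended on a matching build and were not run, and no sequences were read. Since genes could not be joined, domains were named by position: the 10 with the most DMSO peaks, with the longest summed gap and with the greatest width, and the 3 nearest the median width. Domains were oriented where exactly 1 Thio-ChIP peak was met and its middle lay in the outer 25% or beyond an end. The members and lists were chosen with earlier results of these data known. Intervals are 95% Wilson intervals.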

Additional observations from a re-analysis of the deposited data

How the results depend on the processing

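No paired analysis was possible because each treatment had 1 library and the results come from no test; leaving out a library was not possible for the same reason. Of 47 values under other settings, 24 moved. A count was taken to have moved when it changed by more than 1.5 times, and a median or share when it left the 95% interval of the value as given, so the limits are wider for counts. Of the 23 others, 8 could not change. The 2112 domains, with a median width of 16733 bp, a median summed gap of 3327 bp and 6116 DMSO peaks, are the values under the definition as given. With only DMSO peaks at or above the median score of their list, they became 678, 22547 bp, 2687 bp and 1568. With only DMSO peaks at least 1000 bp wide, there were 1449 domains, of 19942 bp, with gaps of 3594 bp and 3966 DMSO peaks. With the domains that met a broad DMSO peak kept, there were 2379 and the median width was 18398 bp. Joining DMSO peaks under 500 or 1000 bp apart changed nothing, since none are that close. The wider joins were chosen after seeing the data. Joining below 2000 bp left 1260 domains, of 20805 bp, with gaps of 4874 bp and 3264 peaks. Below 3000 bp it left 884, of 23357 bp, with 5938 bp and 2135 peaks. Below 5000 bp it left 455, of 28022 bp, with 8052 bp and 1015 peaks. These joins remove short gaps by construction. The counts thus rest on weak DMSO peaks and short gaps. The share meeting a Thio-ChIP peak, 43.4%, was 18.8% when the middle of the Thio-ChIP peak had to lie inside, 26.3% with Thio-ChIP peaks at or above their median score and, in a setting added after seeing the data, 47.6% with domains widened by 1000 bp at each end. The share with the higher DMSO score at the Thio-ChIP end, 87.0%, was chosen after seeing the data, as were its alternatives: 84.2% with the Thio-ChIP peak anywhere in the domain, and 87.0% to 88.7% in the other 3. The planned joins to genes and the Dot1l knockout comparisons, with their alternatives, were not run because the lists were not on the build of the gene table. The unknown depth of the libraries limits every count of peaks.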

Other observations

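The opposite case, a DMSO peak that met 2 or more inhibitor peaks, occurred 113 times. These DMSO peaks had a median width of 8470 bp (1766 to 53729 bp) and a median score of 47, beside 24 over the DMSO list. The summed gap inside them had a median of 1413 bp and a maximum of 7089 bp, so the inhibitor list broke them at short gaps. Of the 113, 51 met a Thio-ChIP peak, or 45.1% (95% Wilson interval 36.3% to 54.3%, counting of peaks only), beside 21.5% of all 13437 DMSO peaks, whose median width was 2073 bp. Within width classes the order differed. Between 2 and 5 kb, 27.6% of 29 such peaks (14.7% to 45.7%) and 21.5% of the other DMSO peaks (20.2% to 22.9%) met one. Between 5 and 10 kb the shares were 55.6% of 36 (39.6% to 70.5%) and 36.1% (33.9% to 38.3%). Between 10 and 20 kb they were 33.3% of 30 (19.2% to 51.2%) and 51.3% (48.1% to 54.5%). The intervals overlapped in the first and the last of these classes.

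The 23 bridging domains that met 2 Thio-ChIP peaks had a median width of 20212 bp, 3 DMSO peaks and a summed gap of 5208 bp. In 3 of them a Thio-ChIP peak lay at each end. Some bridging domains were near neighbours: 142 pairs (6.79%) were less than 5 kb apart and 350 (16.7%) less than 50 kb apart.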
